A study of Mus musculus with 4 samples.

Results

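The genes described here are 10 markers of mast cells, basophils and eosinophils, named by symbol: Cpa3, Mcpt8, Prss34, Tpsb2, Fcer1a, Ms4a2, Prg2, Epx, Hdc and Il1rl1. Probe sets were taken where the platform annotation names exactly 1 gene symbol, and each gene was read on its brightest such probe set, with any others as a check. Of the 10 genes, 8 had a probe set of this kind, 11 probe sets in all, out of 18193 genes in the table. Prss34 and Il1rl1 were not analysed here. The samples were liver from mouse fetuses of the C57BL/6 strain on day 17 of gestation, dissected free of the biliary system. There were 2 groups, Sox17+/- fetuses, heterozygous for the transcription factor gene Sox17, and wildtype fetuses, with 2 biological replicates and 1 Affymetrix array each. Fetuses came from Sox17+/- fathers mated with females of the same strain, so the allele was inherited and not restricted to liver. The sources used here do not give how the allele was made or how many fetuses went into a replicate.

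Mast cells, basophils and eosinophils are granulocytes of the allergic response. They arise from shared myeloid progenitors under GATA factors, and before birth the liver is a main site of blood formation that holds their precursors among far more numerous erythroid and neutrophil cells. Mast cells and basophils bind IgE through a receptor whose alpha chain (Fcer1a) holds the antibody and whose beta chain (Ms4a2) amplifies the signal; their granules hold proteases and histamine. Eosinophil granules hold major basic protein (Prg2) and eosinophil peroxidase (Epx). In whole liver RNA, fewer cells of a type and less RNA per cell cannot be told apart.

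Stretches of promoter are shown for 4 members, as the annotated context of the genes described next. Cpa3, Ms4a2 and Epx had their lowest signal on the same array, and Fcer1a is the receptor partner of Ms4a2. Each stretch lies directly before the outermost annotated start of the gene in RefSeq (build GRCm38.p6), is written 5′ to 3′ on the gene's own minus strand, and has matches to the GATA-factor core GATAA, or its reverse complement TTATC, in capitals. The coordinates are chr3:20242210-20242431 for Cpa3, chr19:11623791-11623969 for Ms4a2, chr1:173227233-173227479 for Fcer1a and chr11:87875537-87875786 for Epx.
Cpa3: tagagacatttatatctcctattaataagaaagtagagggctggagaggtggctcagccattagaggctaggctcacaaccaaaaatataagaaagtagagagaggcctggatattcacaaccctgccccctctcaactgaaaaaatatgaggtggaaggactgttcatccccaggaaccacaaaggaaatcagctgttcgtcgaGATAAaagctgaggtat
Ms4a2: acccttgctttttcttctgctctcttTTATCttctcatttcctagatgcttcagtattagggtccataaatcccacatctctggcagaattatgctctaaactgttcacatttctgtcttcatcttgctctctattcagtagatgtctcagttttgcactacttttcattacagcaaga
Fcer1a: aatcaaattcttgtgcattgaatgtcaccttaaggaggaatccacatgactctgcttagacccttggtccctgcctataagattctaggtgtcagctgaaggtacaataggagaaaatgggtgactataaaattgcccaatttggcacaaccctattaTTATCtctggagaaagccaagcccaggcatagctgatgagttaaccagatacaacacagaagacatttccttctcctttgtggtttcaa
Epx: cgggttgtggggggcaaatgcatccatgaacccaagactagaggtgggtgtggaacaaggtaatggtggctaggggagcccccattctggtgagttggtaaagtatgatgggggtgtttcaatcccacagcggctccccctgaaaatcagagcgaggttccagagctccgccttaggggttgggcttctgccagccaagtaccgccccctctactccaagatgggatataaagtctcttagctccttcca

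Over the 250 bases before the start site listed in the RefSeq table, 3 of the 6 measured members with an entry held GATAA on either strand: Cpa3 and Fcer1a with 1 match each and Ms4a2 with 3. Of those 3 in Ms4a2, 1 lies in the stretch shown. Epx, Hdc and Mcpt8 held none. Among all 32851 promoter windows of the table, 22.6% held at least 1 match. Prg2 and Tpsb2 have no entry.

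The 4 arrays had been scaled by the authors to a trimmed mean signal of 500, and their median signals were 92.6 and 87.1 in Sox17+/- liver and 84.7 and 103 in wildtype liver. Signals are linear MAS5 intensities without detection calls, so a low value cannot be read as absence. Sox17 itself had 139 and 124 on the Sox17+/- arrays against 244 and 264 on the wildtype arrays. The tissue showed its label: Alb, the plasma protein of hepatocytes, had signals between 22768 and 42354. The markers of the 3 granulocyte types were unevenly measured. Among the mast cell genes, Cpa3, Ms4a2, Hdc and Kit lay among the brighter 50% of probe sets by mean signal (89.7 or more). Fcer1a, Tpsb2, Cma1 and Mcpt4 did not. Of the basophil genes Mcpt8 did and Cd200r3 did not, and of the eosinophil genes Prg2, Epx and Siglecf did while Ccr3 and Il5ra did not. The label thus rests on a part of each marker set, and 6 of the 8 measured members entered the test across probe sets. The tested mast cell genes did not share a direction on their brightest probe sets. Kit had the higher mean in Sox17+/- liver, and Cpa3, Ms4a2 and Hdc the lower.

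Of the 8 measured members, 3 were lower in Sox17+/- liver with no overlap between the groups, namely Cpa3, Hdc and Prg2, and 1 was higher, Tpsb2. Over all genes on their brightest probe set, 19.0% were lower and 13.9% higher without overlap, and among all tested probe sets 16.9% were lower. None of the 6 tested members passed the limma test after Benjamini-Hochberg adjustment over all 22519 tested probe sets (adjusted p = 0.9999 for each), and 2 of them, Cpa3 and Hdc, had an unadjusted p under 0.05. The mean of Cpa3 in Sox17+/- liver, 80.4, was below the lowest tested mean of 89.7, so Cpa3 entered the test through its wildtype arrays, and without the filter its unadjusted p was 0.0734. Across the array 0.0% of probe sets passed, 0 of 22519, with 916 at an unadjusted p under 0.05. The median log2 difference was -0.56 over the 8 measured members and -0.03 over all genes, on the log2(signal + 16) scale used throughout for differences. Without the first Sox17+/- array the median of the members was -0.19.

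**Figure D1:**
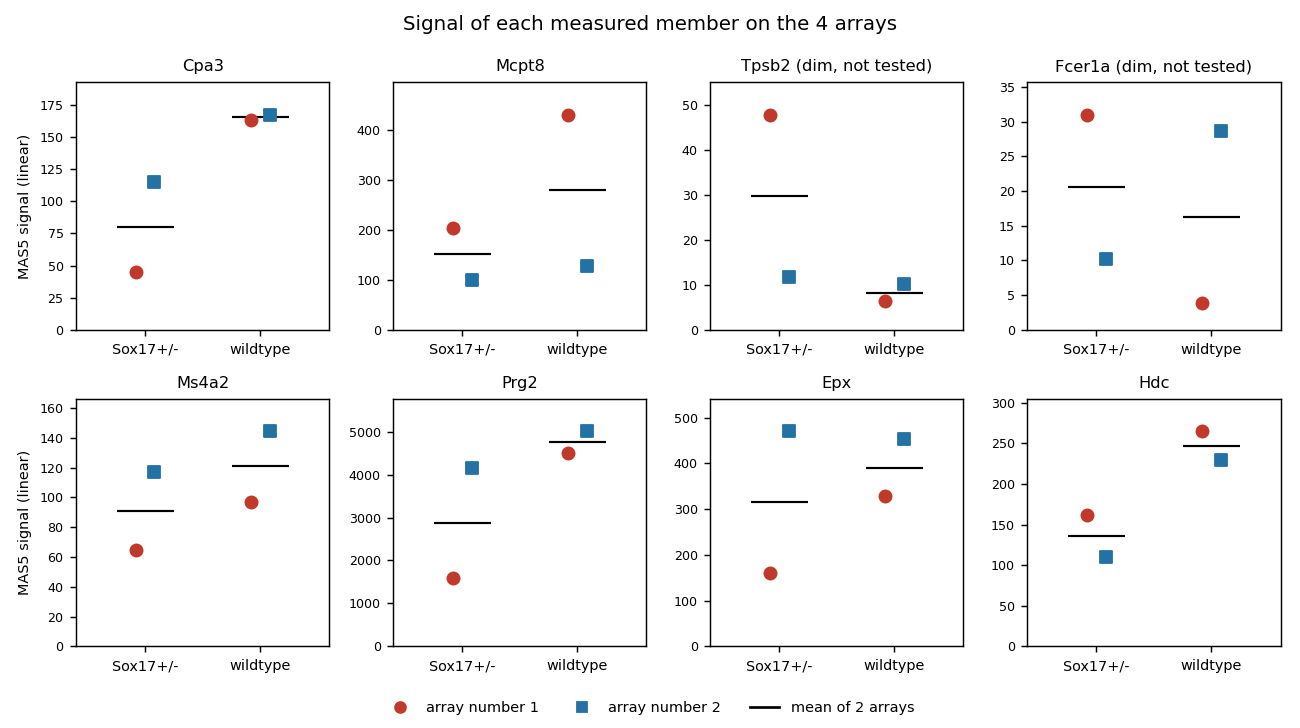
MAS5 signal (linear, each panel from 0) of the brightest probe set of the 8 measured members, Sox17+/- on the left and wildtype on the right. Points are single arrays, circles number 1 and squares number 2, and bars are means of 2 arrays. Cpa3, Prg2 and Hdc are lower in Sox17+/- liver without overlap between the genotypes, and the dim Tpsb2 is higher without overlap. Epx, Ms4a2, Mcpt8 and Fcer1a overlap.

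The eosinophil granule genes differed from each other in overlap. Prg2, which encodes the toxic, strongly basic protein of the eosinophil granule core, had signals of 1603 and 4148 in Sox17+/- liver against 4493 and 5009 in wildtype liver. Both Sox17+/- arrays were below both wildtype arrays, but the second by little and the first by a wide margin. The means were 2876 ± 1800 and 4751 ± 365 (SD, n = 2 each), a ratio of 0.605 and a log2 difference of -0.87 (SE 0.47, 95% interval -2.08 to 0.34, adjusted p = 0.9999 by limma). Epx, the peroxidase of the eosinophil granule matrix, had 161 and 470.3 in Sox17+/- liver against 330 and 452 in wildtype liver. The groups overlapped, since the second Sox17+/- array was the highest of all and the first the lowest. Its log2 difference was -0.45 (SE 0.52, 95% interval -1.77 to 0.87).

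Without the first Sox17+/- array the difference of Prg2 was -0.19 and that of Epx was 0.27, in the opposite direction. With it and without the second Sox17+/- array they were -1.56 and -1.18.

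Among the further eosinophil genes, Prg3, Alox15 and Siglecf had their lowest signal on that same first Sox17+/- array. Prg3, a homologue of major basic protein that lies next to Prg2 with no coding gene between them, had signals of 143 and 232 in Sox17+/- liver against 258 and 198 in wildtype liver. Alox15, the 15-lipoxygenase of eosinophils and macrophages, had 55.7 and 180.5 against 189.6 and 190.5. Siglecf, an inhibitory lectin of the eosinophil surface, had 134 and 145 against 158 and 166. Siglecf and Alox15 thus did not overlap between the genotypes, and Prg3 did. The eotaxin receptor gene Ccr3 went the other way at dim signals, with 27.3 and 19.4 in Sox17+/- liver against 5.91 and 4.92 in wildtype liver. Il5ra, which encodes the chain that binds the eosinophil growth factor interleukin-5, had 50.04 and 23.4 against 28.5 and 39.5 and overlapped.

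Of the 3 measured member proteases, Cpa3 was the one that was lower without overlap. Cpa3 encodes carboxypeptidase A3, a mast cell granule enzyme that basophils and their progenitors also express. Its signals were 45.3 and 115 in Sox17+/- liver against 163 and 167 in wildtype liver, so the wildtype arrays were nearly equal and both Sox17+/- arrays lay below them. The means were 80.4 ± 49.5 and 165 ± 3.15 (SD, n = 2 each), a ratio of 0.486 and a log2 difference of -1.01 (SE 0.40, 95% interval -2.03 to -4.5e-05, unadjusted p = 0.050, adjusted p = 0.9999 by limma). The unadjusted p by limma was 0.0714 with quantile normalization, 0.0640 with a trended and robust prior and 0.0577 with a pseudocount of 1. It was 0.0439 with a pseudocount of 64, 0.0434 with median centring and 0.0288 with a replicate block. Cpa3 did not pass after adjustment in any of these fits. Without the first Sox17+/- array the difference was -0.46.

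Mcpt8, a granzyme-like protease used as a basophil marker in the mouse, had signals of 204 and 101 in Sox17+/- liver against 431 and 129 in wildtype liver. The array numbered 1 was the higher one in each genotype, and the groups overlapped. The log2 difference of -0.67 (SE 0.62, 95% interval -2.25 to 0.91) became 0.15 without the first wildtype array and -1.48 without the second. Tpsb2, the mast cell tryptase mMCP-6, was dim and was not tested. It had 47.8 and 11.8 in Sox17+/- liver against 6.39 and 10.1 in wildtype liver, with the second array of each genotype nearly equal, and its other probe set had 15.6 and 14.5 against 5.95 and 16.4, with overlap.

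The genes encoded directly beside Mcpt8 had differences opposite in sign to that of Mcpt8, Mcpt4 at dim signals. Tpsab1, beside Tpsb2, had the same sign as Tpsb2. Ctsg, cathepsin G of mast cells and neutrophil precursors, is the direct coding neighbour of Mcpt8 and had signals of 5289 and 4189 in Sox17+/- liver against 4486 and 3438 in wildtype liver. Its array numbered 1 was also the higher one in each genotype, but its log2 difference was 0.26 (SE 0.25, 95% interval -0.38 to 0.90). Mcpt4, a connective tissue mast cell chymase on the other side of Mcpt8, had 3.30 and 14.2 against 2.78 and 3.00. The chymase gene Cma1 had 105 and 74.4 against 73.6 and 99.4. Tpsab1, which lies beside Tpsb2 and is annotated as a transcribed pseudogene in this strain's genome, had 94.96 and 67.2 against 31.9 and 69.6. Its groups overlapped, with a log2 difference of 0.59 against 0.80 for Tpsb2, and it was not tested. Tpsb2 and Tpsab1 are close relatives, and whether their probe sets read each other's transcripts was not tested. Of the 10 measured granule genes 0 were lower and 2 higher without overlap, against 19.0% and 13.9% of all genes. The 2 were Mcpt1 and Mcpt4, both too dim to be tested. Mcpt1, a mucosal mast cell chymase, had 49.7 and 50.6 in Sox17+/- liver against 16.1 and 32.1 in wildtype liver. The brightest of this list beside Ctsg were Srgn, the proteoglycan core that binds granule proteases, and Ndst2, which sulphates mast cell heparin, with log2 differences of -0.04 and -0.19 (SE 0.21 and 0.32) and overlap.

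The alpha chain (Fcer1a) and the beta chain (Ms4a2) of the IgE receptor were both read. Ms4a2 had signals of 64.5 and 117 in Sox17+/- liver against 97.0 and 144 in wildtype liver. Within each array number the Sox17+/- signal was lower, but the second Sox17+/- array was above the first wildtype array. The log2 difference was -0.38 (SE 0.34, 95% interval -1.25 to 0.49), and -0.02 without the first Sox17+/- array. The second, dimmer Ms4a2 probe set had 49.6 and 33.9 against 39.3 and 33.1, a difference of 0.13 in the opposite direction. Fcer1a had 31.0 and 10.2 in Sox17+/- liver against 3.83 and 28.6 in wildtype liver, so that each genotype held 1 low and 1 high array, and it was too dim to be tested. Fcer1g, the shared gamma chain that many myeloid cells express, had 2073 and 1628 against 2639 and 1853, with overlap and a log2 difference of -0.27 (SE 0.27).

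Hdc encodes histidine decarboxylase, the only enzyme that makes histamine. On the brightest probe set its signals were 161 and 111 in Sox17+/- liver against 265 and 229 in wildtype liver, and the groups did not overlap. The means were 136 ± 35.8 and 247 ± 25.1 (SD, n = 2 each), a ratio of 0.55 and a log2 difference of -0.81 (SE 0.25, 95% interval -1.46 to -0.16, unadjusted p = 0.0237, adjusted p = 0.9999 by limma). Hdc kept a difference between -0.57 and -1.05 with any 1 array left out. The second Hdc probe set, almost as bright on average, had 107 and 239 against 173 and 243, with overlap and a difference of -0.32 (SE 0.41). The probe sets also ordered the arrays differently. On the brightest the array numbered 1 was the higher one in each genotype, and on the second it was the lower one. Slc18a2, the transporter that loads histamine into granules, had 94.1 and 107 in Sox17+/- liver against 127 and 117 in wildtype liver, without overlap and with a log2 difference of -0.25 (SE 0.20).

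The 8 members fell into different orders over the arrays. Cpa3, Ms4a2, Prg2 and Epx had their lowest signal on the first Sox17+/- array, 4 of 8 measured members, against 26.4% of all genes. The same 4 were lower on the array numbered 1 than on the array numbered 2 in both genotypes, against 28.1% of all genes. Mcpt8 and Hdc had the opposite order in both genotypes, as did 29.8% of all genes, and Fcer1a and Tpsb2 had no common order. The labels give same-numbered arrays of the 2 genotypes a common code in their array names. Within each number, 5 of the 8 members were lower in Sox17+/- liver in both comparisons, against 31.0% of all genes. The median difference of the 8 members was -0.81 within number 1 and -0.29 within number 2, and the corresponding values over all genes were -0.00 and -0.06. The differences of Cpa3 were -1.55 and -0.48 within numbers 1 and 2, those of Prg2 -1.48 and -0.27, those of Mcpt8 -1.02 and -0.31, and those of Hdc -0.66 and -0.95. On the brightest probe sets, Hdc was the only member below 0 in both with the wider difference in number 2. The second Hdc probe set had -0.62 and -0.02, wider in number 1, and its lowest signal was on the first Sox17+/- array.

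**Figure D2:**
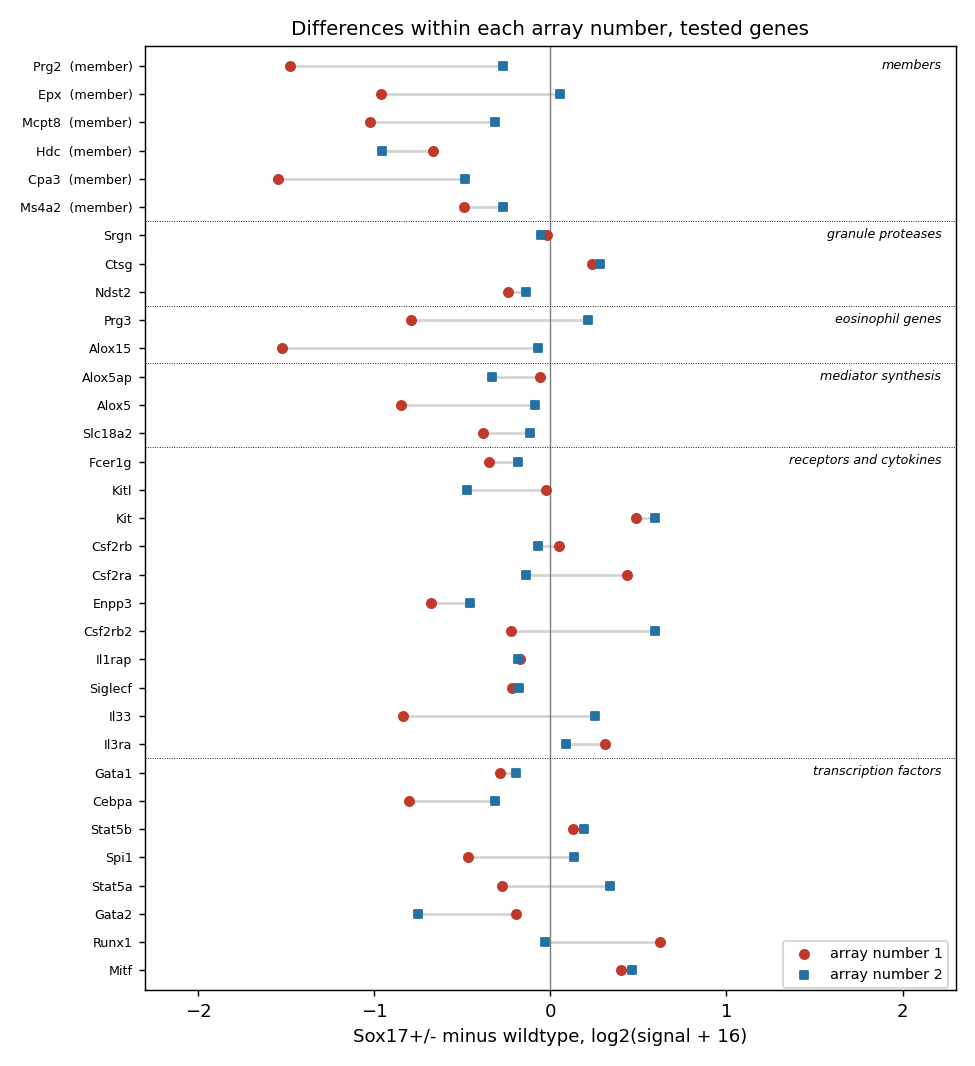
Log2 difference, Sox17+/- minus wildtype on log2(signal + 16), within array number 1 (circles) and number 2 (squares), for the tested members at the top and the tested genes of 5 related lists below. Among the members Hdc, Cpa3, Mcpt8, Prg2 and Ms4a2 are below 0 in both, and Epx is below 0 in number 1 alone.

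The wider lineage programme was read on 6 further lists of 64 genes, 54 of them measured and 35 tested: granule proteases, receptors and cytokines, eosinophil genes, mediator synthesis, transcription factors, and signalling below the IgE receptor. None of the 35 passed the limma test after adjustment, and 1, Gab2, had an unadjusted p under 0.05. Of the 54 measured genes 11 were lower and 8 higher without overlap, or 20.4% and 14.8%, close to the shares over all genes given above. Their median log2 difference was -0.13. The first Sox17+/- array was lowest for 13 of the 54, or 24.1%.

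Among the receptors, 3 of 18 measured genes were lower without overlap (Siglecf, Il1rap and Enpp3) and 2 higher, against 19.0% and 13.9% of all genes. Enpp3, an ectoenzyme of the basophil and mast cell surface, had signals of 247 and 330.1 in Sox17+/- liver against 403 and 458 in wildtype liver on its brightest probe set (log2 difference -0.56, SE 0.24). Its next brightest had 106 and 103 against 318 and 287 (-1.40, SE 0.20), while the third overlapped. The fourth, too dim to be tested, had 118 and 70.4 against 47.5 and 89.9 (0.39), so the probe sets of this gene disagreed in size and in sign. Kit, the stem cell factor receptor that mast cells need and that blood progenitors also carry, had signals of 984 and 1505 in Sox17+/- liver against 698 and 993 in wildtype liver. The groups overlapped by a small margin, with a log2 difference of 0.54 (SE 0.31, 95% interval -0.26 to 1.34), opposite in sign to that of Cpa3. The other Kit probe set had 248 and 471 against 204 and 348. Kitl, the ligand of Kit, had 980.1 and 1061 against 997 and 1476, with overlap. Csf2rb, the common beta chain of the interleukin-3, interleukin-5 and GM-CSF receptors, had 1056 and 755 against 1022 and 794 and a log2 difference of -0.01 (SE 0.27). Il33, the alarmin that the receptor encoded by Il1rl1 recognises, had 116 and 109 against 219.5 and 88.9, with overlap.

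The lineage transcription factors were also without a call. Gata2, which mast cells and basophils require, had signals of 347 and 247 in Sox17+/- liver against 399 and 426 in wildtype liver. The groups did not overlap on either of its probe sets, and the log2 difference was -0.47 on the brightest (SE 0.24, 95% interval -1.10 to 0.15) and -0.19 on the other (SE 0.21). Mitf, a factor of mast cells and pigment cells, did not overlap in the other direction, with 139 and 110 against 102 and 75.7 and a difference of 0.43 (SE 0.24). Gata1, shared by eosinophil, mast, megakaryocyte and erythroid cells, had 3136 and 4266 against 3822 and 4879, with overlap. Cebpa, a factor of granulocytes that hepatocytes also express, had 2361 and 1841 against 4127 and 2295, with overlap. Stat5b, which relays cytokine signals, had 1025 and 1096 against 935 and 957, without overlap and with a difference of 0.16 (SE 0.20). The other Stat5b probe set had 374 and 453 against 268 and 414, with overlap and a difference of 0.29 (SE 0.28).

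In mediator synthesis 3 of 7 measured genes were lower without overlap and 0 were higher, against 19.0% and 13.9% of all genes. They were Slc18a2, the leukotriene-forming lipoxygenase gene Alox5, with 225 and 295 in Sox17+/- liver against 418 and 315 in wildtype liver, and the prostaglandin D synthase gene Hpgds, with 54.2 and 40.4 against 83.3 and 114, which was too dim to be tested. Alox5ap, the activating protein of that lipoxygenase, had 3285 and 2081 against 3416 and 2620, with overlap. Of 9 genes of IgE receptor signalling 3 were lower and 2 higher without overlap. The brightest 3 were Btk, Plcg2 and Lcp2, with log2 differences of 0.25, -0.15 and 0.09 (SE 0.23, 0.27 and 0.20). Gab2, an adaptor of mast cell signalling, had 782 and 609 in Sox17+/- liver against 471 and 439 in wildtype liver on its brightest probe set. Its next brightest had 200 and 147 against 124 and 174, with overlap and a log2 difference of 0.20 (SE 0.27). The dimmest, not tested, had 84.7 and 85.3 against 79.7 and 62.3, without overlap.

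**Figure D3:**
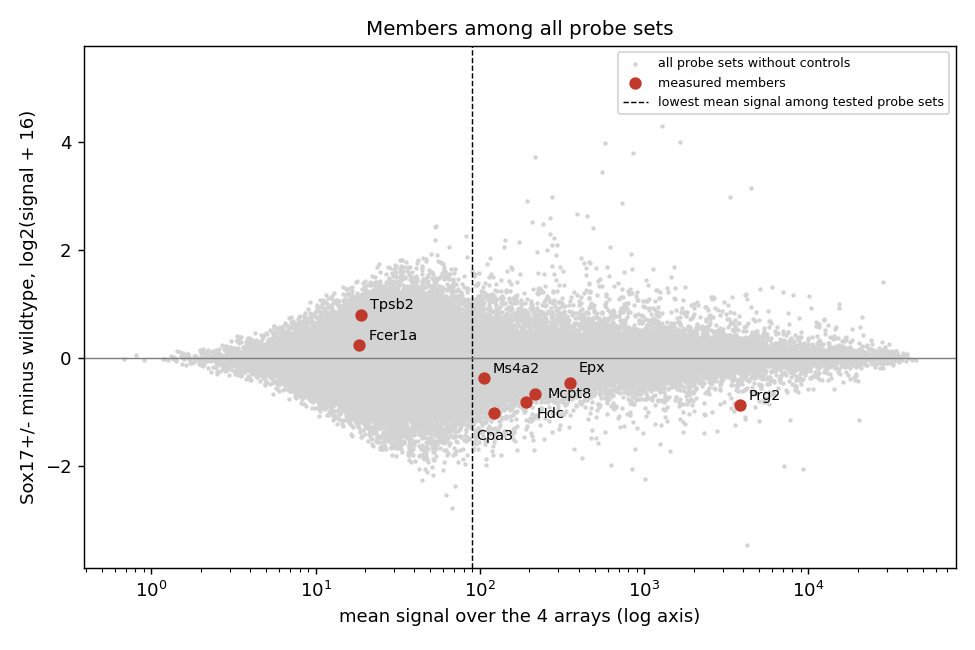
Log2 difference (Sox17+/- minus wildtype, log2(signal + 16)) against the mean signal over the 4 arrays (log axis) for all probe sets without controls in grey and the 8 measured members in red. The dashed line at 89.7 is the lowest mean signal among tested probe sets; Tpsb2 and Fcer1a lie to its left, and the 6 tested members, all below 0, lie within the grey cloud.

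Markers of the other cells of the organ were read on the same arrays, where 19.0% of all genes were lower and 13.9% higher without overlap. All 5 measured megakaryocyte markers (Ppbp, Pf4, Itga2b, Gp9 and Gp1bb) were lower without overlap, and their summed signal was 21926 and 22412 in Sox17+/- liver against 27864 and 26453 in wildtype liver. Of 9 neutrophil and promyelocyte markers 0 were lower or higher without overlap, and their summed signal was 184911 and 110051 against 185858 and 107821, with all 9 higher on the array numbered 1 in both genotypes. The same order held for 4 of 4 hepatocyte and 5 of 6 erythroid markers, and among the members for Mcpt8 and the brightest probe set of Hdc, while the second Hdc probe set had the opposite order. The highest signal on each array had this order too, 56860 and 32468 in Sox17+/- liver and 56988 and 34407 in wildtype liver. Whether the order of these markers reflects the cells or the intensity range of the arrays was not tested. Of 6 erythroid markers 1 was lower without overlap (sums 119657 and 98276 against 119750 and 104410). Of 6 stem and progenitor markers 2 were lower without overlap. Within both array numbers 5 were lower, against 31.0% of all genes (sums 3111 and 3427 against 3603 and 3881, without overlap). Myb, the brightest gene of this list, had 1987 and 2436 against 2288 and 2587, with overlap. Its other probe sets had log2 differences of -0.15 and 0.19. Of 7 macrophage markers 3 were lower without overlap (Csf1r, Vsig4 and Clec4f) and 1 higher (Marco), and 2 had an unadjusted p under 0.05 by limma. The other 3 overlapped, among them the bright Cd5l, with 6510 and 5705 against 6458 and 5575 (log2 difference 0.02, SE 0.21). The summed signal of this list was 20802 and 18200 against 20606 and 16920, with overlap. The second Csf1r probe set by brightness had 1255 and 1519 against 1637 and 1430, with overlap. Vsig4, a complement receptor of Kupffer cells, had 130.03 and 194 in Sox17+/- liver against 811 and 364 in wildtype liver (log2 difference -1.68, SE 0.43). Clec4f, a Kupffer cell lectin, had 487 and 402 against 1097 and 584 (-0.83, SE 0.35). Marco, a scavenger receptor, had 5024 and 3274 against 2257 and 1738 (1.03, SE 0.30), and its other probe set differed by 1.07. None of these passed after adjustment by limma (adjusted p = 0.9999). Of 6 T cell and innate lymphoid markers 3 were lower without overlap, Cd3e, Gata3 and Thy1, all too dim to be tested. The summed signal of this list (1281 and 910.0 against 1130.1 and 640.4) held Rora as its brightest gene, which had 983 and 641 in Sox17+/- liver against 691 and 255 in wildtype liver, with overlap. All 9 Rora probe sets had a log2 difference above 0, and they disagreed on overlap. The next brightest had 551 and 586 against 510 and 289, higher without overlap, and the third overlapped. Of 4 hepatocyte markers 0 were lower or higher without overlap. The part of these cells in the values of the members was not tested.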

How the data were processed

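RNA from fetal liver, 2 biological replicates each of Sox17+/- and wildtype, was labelled with biotin and read on 1 array each, per the labels. The deposited table holds 1 linear intensity (signal) per probe set, made by the authors with MAS5, per the submitters' processing notes; its version is not given in the sources used here. MAS5 reads each probe set from its own array, dim signals are noisy, and the common scaling removes differences in total RNA. Of 45101 probe sets, 64 controls were left out; 34945 of the rest had 1 gene symbol, 932 several and 9160 none listed. limma 3.58.1 in R 4.3.3 (lmFit, eBayes, two-sided) was fitted to log2(signal + 16) with genotype as the only term, on the brighter 50% of probe sets by mean signal, 22519 in all, with Benjamini-Hochberg adjustment over all of them and a threshold of 0.05. The fold on this scale understates the change of dim genes. The fit had 2 residual degrees of freedom and 3.06 from the prior. With 2 arrays a group, the smallest two-sided p of an exact permutation test is 0.333. The number of arrays limits precision, and the p-values measure the spread between these samples only.

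The genes and lists were chosen with earlier results of these data known. All 10 members were to be named, with the 3 brightest genes of each further list described and 12 fixed genes such as Kit and Gata2; Gab2, Siglecf, Ccr3, Il5ra, Il1rap, Enpp3, Hpgds, Mcpt1, Cd200r3, Alb, Gp9, Gp1bb, Vsig4, Clec4f, Cd3e, Gata3 and Thy1 were added with their values in view. The alternatives changed the pseudocount (1 or 64), dropped the filter or kept the brighter 25%, used median centring or quantile normalization, and tried a replicate block, a trended and robust prior, leaving out each array, and other probe sets. The code was tested on simulated data.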

Additional observations from a re-analysis of the deposited data

How the results depend on the processing

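None of the 6 tested members passed at the adjusted threshold in the main fit or under the alternatives of the fit that tested it; with the brighter 25% of probe sets, Prg2 was the only member tested. Over all probe sets, 3 passed with median centring and 3 with a trended and robust prior, none of them a member, and 0 passed under the other alternatives run. Leaving out 1 array in turn gave 4 to 5 members lower without overlap, fewer arrays making separation easier, and a median log2 difference of the members between -0.65 and -0.19, the latter without the first Sox17+/- array. Leaving out 1 array moved Epx between -1.18 and 0.27 and Mcpt8 between -1.48 and 0.15, and the sign of Ms4a2 turned on its second probe set (0.13); the cause was not tested. Fcer1a, too dim to be tested, lay between -0.34 and 0.82. Cpa3, Hdc, Prg2 and Tpsb2 kept their direction under every alternative run, Cpa3 between -1.56 and -0.46 and Prg2 between -1.56 and -0.19. The numbers in the labels do not establish a pairing. The deviations of the arrays numbered 1 from the mean of their genotype correlated at r = 0.383 (22519 probe sets, which are not independent replicates), and with a replicate block 0 probe sets passed, with a lowest adjusted p of 0.649 among the members, for Hdc. Dim signals and the number of arrays limit what can be detected for Fcer1a and Tpsb2.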
